A study of Rattus norvegicus with 12 samples.

Results

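The genes described here encode the calcium, potassium and sodium channels of the cell membrane and their partner subunits. They were taken by gene symbol: all symbols that begin with Kcn or Cacn, and all made of Scn, a number and a final a or b. This leaves out the Scnn genes. Of the 16493 genes in the files, 126 met this rule, namely 88 Kcn, 25 Cacn and 13 Scn genes. Not all of them are pores gated by voltage. The inward rectifiers (Kcnj), the leak channels of the K2P family (Kcnk), the calcium- or sodium-activated potassium channels (Kcnma, Kcnmb, Kcnn and Kcnt) and the auxiliary subunits carry the same symbol stems and were kept.

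The values are RNA levels in whole uterus of female Sprague Dawley rats, ovariectomized to remove the ovarian estrogens and examined on postnatal day 65. The protein of the diet was casein, from milk, in the CAS group and soy protein isolate, a source of isoflavones, in the SPI group. Rats of CAS-E2 and SPI-E2 ate these diets too and were infused under the skin with 17β-estradiol (E2), the main ovarian estrogen, at 5 μg/kg/d, while CAS and SPI rats were infused with vehicle alone. Each group had 3 libraries, and each library was a pool of RNA from 2 uteri, so errors are those between pools. All 12 libraries came from ovariectomized animals, so E2 effects are effects of replacement, and libraries of a group were sequenced together, so that lane and group cannot be told apart.

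Voltage-gated channels are pore proteins that open or close as the membrane potential changes. In uterine smooth muscle, calcium that enters through L-type calcium channels during an action potential starts the contraction, and potassium channels bring the membrane back to rest and keep the muscle quiet between contractions. Epithelial cells use potassium channels to set the driving force for secretion and absorption of salt and water, and glia, nerves and blood vessels of the uterus have channels of their own. Pore subunits rarely act alone, since beta, alpha2delta, Kcne, Kcnip and Kcnmb proteins set how many pores reach the membrane and how they gate.

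Levels are given as FPKM, a scale that divides the reads of a transcript by its length and by the mapped reads of the library. The libraries held 6353210 to 9862180 mapped reads (median 7515612), and 26 to 41 of the 126 genes reached an FPKM of 1 in a library (median 36). For a gene with the median transcript length of the tested channel genes, 2520 bases, 1 FPKM stood for 18.9 reads in the median library. Of the 126 genes, 45 reached an FPKM of 1 in 3 or more libraries and were tested, 81 were not tested, and 10 of these were listed at 0 in all libraries. The test was limma on log2(FPKM + 1) over the 10279 genes that passed this filter, with Benjamini-Hochberg adjustment over all of them. A gene was called when its adjusted p was under 0.05 and its change at least 2-fold on that scale. Adding 1 shrinks the fold changes of scarce RNAs.

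Library SPI-E2 1 stood apart from the other E2 libraries. Over the 1476 genes called between CAS-E2 and CAS, the median gene of SPI-E2 1 had covered 0.335 of the CAS-E2 change, measured from the SPI mean, while SPI-E2 2 and SPI-E2 3 had covered 0.904 and 0.948. The CAS-E2 libraries lay at 0.825 to 0.974 and the libraries without E2 at -0.111 to 0.0212 on this measure. SPI-E2 1 was kept. Soy results are also given without it for the genes called on soy with or without it, and for some others. Genes not given this way can be altered too. Without SPI-E2 1 the limma adjusted p on soy went from 0.236 to 0.0089 for Kcnj4 and from 0.156 to 0.019 for Kcnh1. SPI-E2 1 was singled out by its small E2 change over genes that include channel genes. The adjusted p and calls without SPI-E2 1 are thus descriptions and cannot be read as error rates. Epithelial keratins and junction genes (Epcam, Cdh1, Krt8, Krt18, Krt19, Krt7, Cldn4, Cldn3), of which 7 had a row, summed to 189.6 to 216.7 FPKM in CAS and 808.5 to 1389 in CAS-E2. Their sum was 121 to 154.5 in SPI and 480.5 to 1676 in SPI-E2, lowest in SPI-E2 1. In whole tissue, fewer cells of a type and less RNA per cell cannot be told apart. The smooth muscle genes of the list fixed for this tissue, 9 of 10 found, summed to 2095 to 4868 FPKM in the 12 libraries, and none of the 9 was at 0. The lowest sum was in CAS-E2 3.

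Averaged over the 12 libraries, the most abundant channel RNA was Kcnmb1, the smooth muscle beta subunit of the BK channel, a potassium channel opened by calcium together with voltage, at 22.1 FPKM. Kcnk1 and Kcnk6, leak channels of the K2P family known from epithelia, followed at 17.3 and 15.1 FPKM. The order differed between groups. Kcnmb1 had the highest mean in CAS (20.2) and SPI (19.3), with Kcnh2 next at 18.6 and 13.2, while in CAS-E2 and SPI-E2 the mean of Kcnk1 (25.5 and 27.4) was above that of Kcnmb1 (24.2 and 24.7), with overlapping libraries. Over all libraries Kcnh2, the pore of the ERG channel that repolarises smooth and cardiac muscle, had 13.4 FPKM, Scn2b, a sodium channel beta subunit, 9.70, and Kcnj8, the pore of a vascular and muscular potassium channel opened when ATP falls, 8.68. Cacna1c, the main L-type calcium pore of smooth muscle, was the most abundant calcium pore in the mean of all libraries and in CAS and SPI-E2. In SPI the mean of Cacna1d (6.54 against 6.44 FPKM) and in CAS-E2 that of Cacna1g (4.74 against 4.59) was slightly higher, with overlapping libraries. The sodium pores were scarce: all 9 together summed to 0.286 to 3.05 FPKM in a library, and Scn7a, a sodium channel of glia and other non-neuronal cells, was the single one tested.

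**Figure D1:**
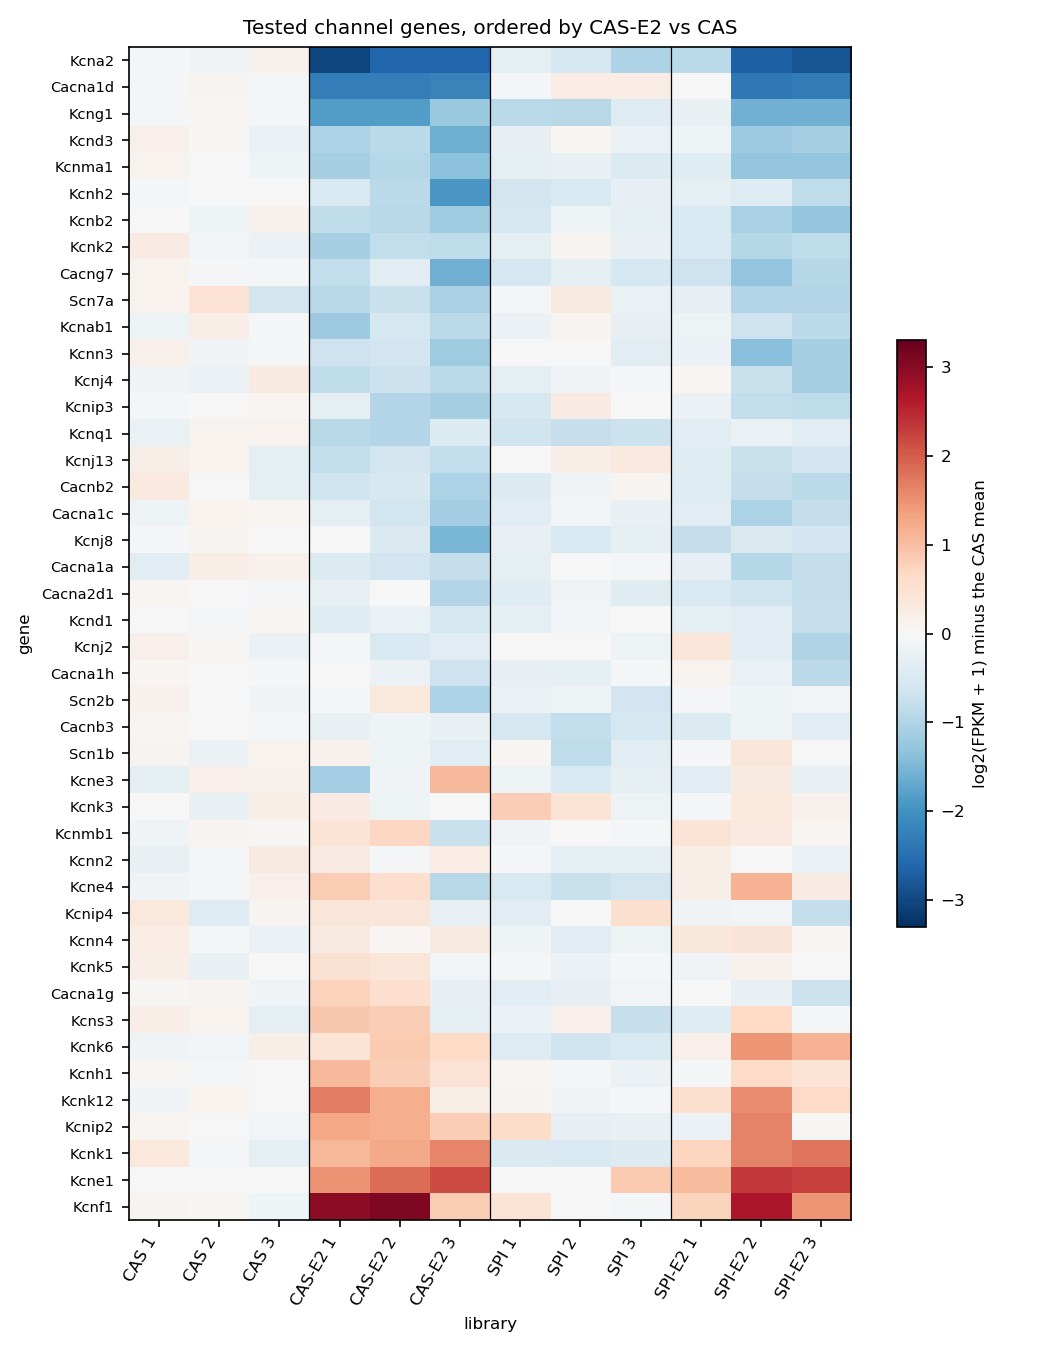
Tested channel genes (rows) in the 12 libraries (columns), ordered by the change from CAS to CAS-E2; colour is log2(FPKM + 1) minus the mean of the 3 CAS libraries. Blue at the top (Kcna2, Cacna1d) and red at the bottom (Kcnf1, Kcne1, Kcnk1) mark the strongest changes, and in the upper rows SPI-E2 1 resembles the SPI libraries.

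On the casein diet, 6 channel genes had less RNA with E2 and 5 had more. Kcna2, a delayed rectifier potassium pore, and Cacna1d, the L-type calcium pore of pacemaker and endocrine cells, nearly disappeared. Kcng1, Kcnd3, Kcnma1 and Kcnh2, all potassium pore subunits, fell less. Kcnf1, Kcne1, Kcnk1, Kcnip2 and Kcnk12 rose. The 5 that rose were 11.1% of the 45 tested channel genes, beside 7.99% of all genes tested, and the 6 that fell were 13.3%, beside 6.37% of all genes.

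Kcna2 had 7.48, 7.04 and 8.53 FPKM in the CAS libraries and 0.0654, 0.416 and 0.420 in CAS-E2. No CAS-E2 library came near a CAS library, and the CAS-E2 mean of 0.301 ± 0.204 (SD, n = 3) was 3.91% of the CAS mean of 7.68 ± 0.767 (SD, n = 3). The change was -2.75 on the log2 scale with a standard error of 0.41, at a limma adjusted p of 0.00072, the smallest among the channel genes. On the soy diet, Kcna2 had 6.01, 4.94 and 3.24 FPKM without E2 and 3.66, 0.342 and 0.207 with E2. SPI-E2 1 was inside the SPI range and the other SPI-E2 libraries were far below it. The limma change was -1.52 ± 0.41 (SE) at an adjusted p of 0.0188, and -2.14 ± 0.21 (SE) at 2.32e-05 without SPI-E2 1. In reads, the E2 values are small: the CAS-E2 libraries held the equivalent of 1.1, 8.8 and 6.6 reads of Kcna2, and the CAS libraries 125 to 160.

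Cacna1d had 5.60, 6.22 and 5.66 FPKM in CAS and 0.407, 0.394 and 0.474 in CAS-E2, a 13.7-fold lower mean. The CAS-E2 libraries lay close together, with an SD of 0.0428, and far below all CAS libraries. The limma change was -2.26 ± 0.47 (SE) at an adjusted p of 0.00387. On soy, Cacna1d had 5.48, 7.06 and 7.06 FPKM without E2 and 5.93, 0.330 and 0.374 with E2. SPI-E2 1 thus held as much Cacna1d as the SPI libraries, while the other SPI-E2 libraries held as little as CAS-E2. The limma change on soy was -1.69 ± 0.47 (SE) at an adjusted p of 0.0225, and -2.47 ± 0.14 (SE) at 3.85e-07 without SPI-E2 1. Both soy calls, for Kcna2 and Cacna1d, were also lost in 5 alternatives each, among them leaving out SPI-E2 2 or SPI-E2 3, with adjusted p up to 0.0881 and 0.103.

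**Figure D2:**
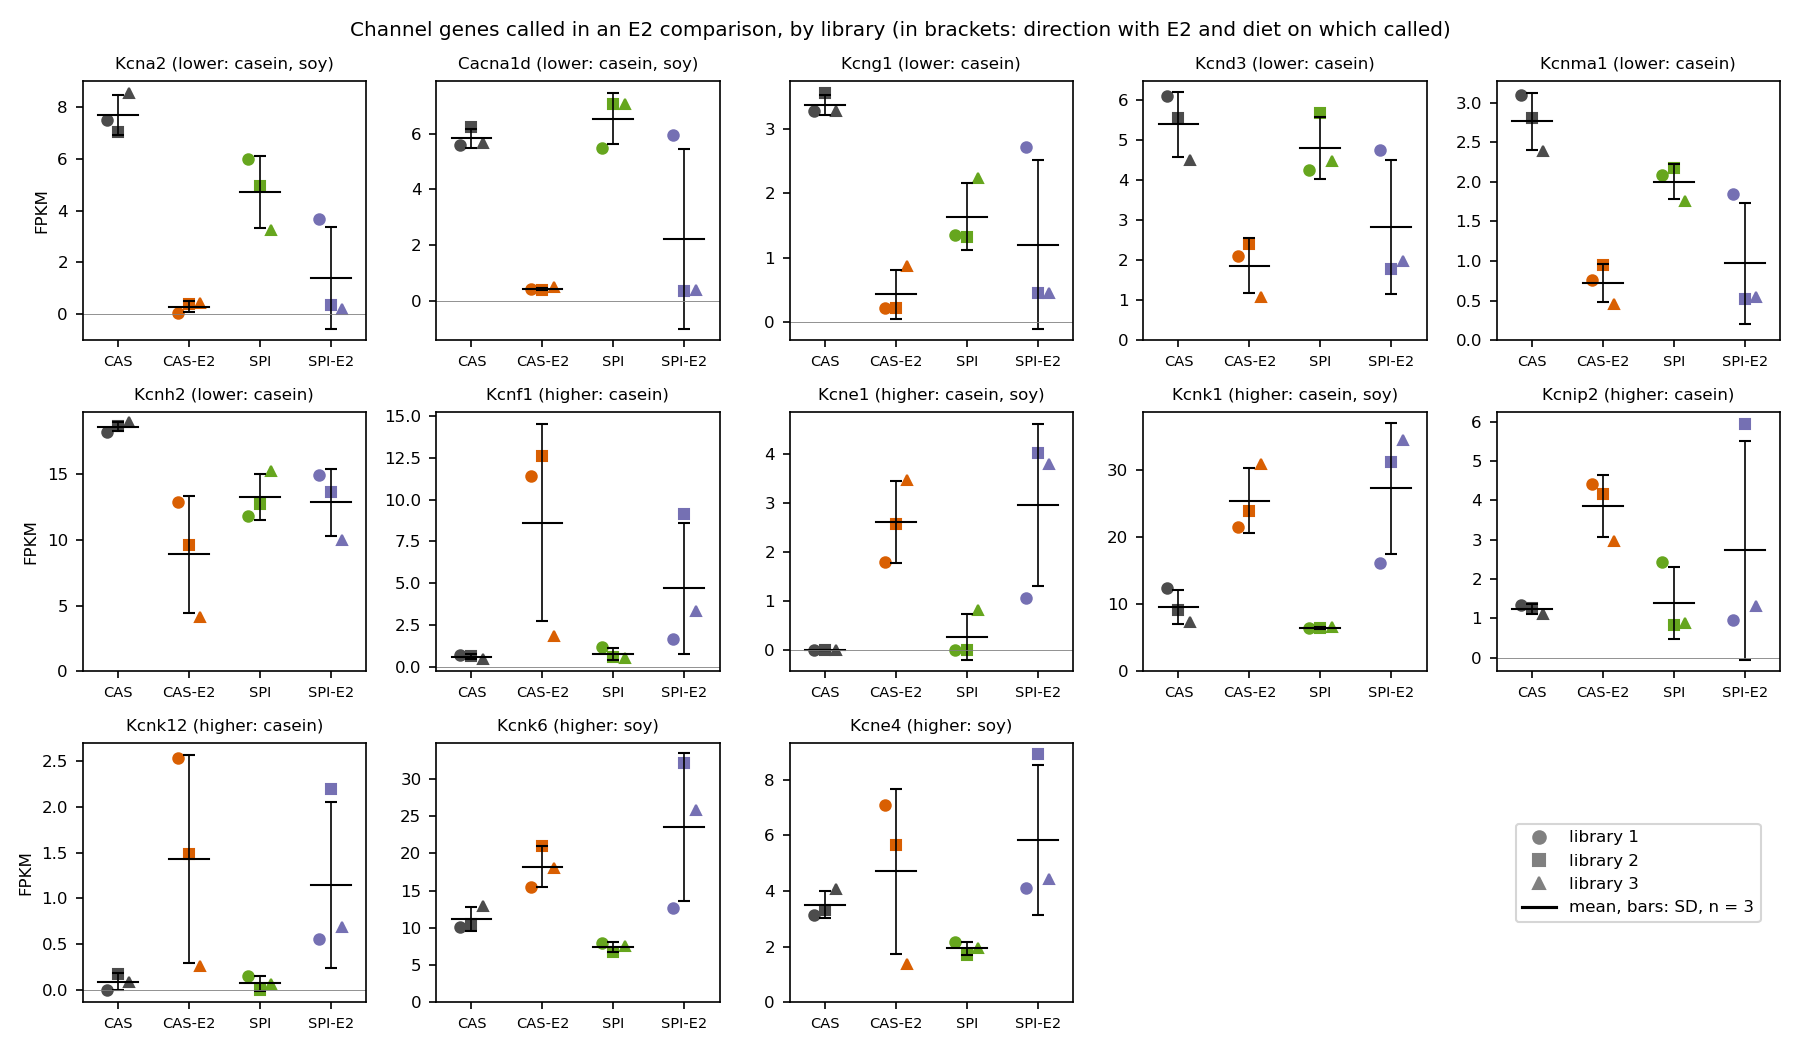
FPKM (linear axes) of the 13 channel genes called in an E2 comparison, by group; each marker is a library, the line is the mean and the bars the SD of 3 libraries. In Cacna1d the SPI-E2 1 marker, at 5.93, sits with the SPI libraries, while SPI-E2 2 and SPI-E2 3 sit with CAS-E2 below 0.5.

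The E2 comparisons on casein and on soy share no library, and 4 channel genes were called in both: Kcna2 and Cacna1d lower, Kcnk1 and Kcne1 higher. In the files, on the rn4 build, Kcna2 lies at chr2:202560175-202564305 on the plus strand, Cacna1d at chr16:5383259-5703361 on the minus strand, Kcnk1 at chr19:56216600-56255299 on the plus strand and Kcne1 at chr11:32344529-32355189 on the minus strand. The 250 bases before the gene start were read from RefSeq, build GRCr8, for 3 of them, and are shown because these genes moved the same way in comparisons that share no library. Printed 5′ to 3′ on the strand of the gene, with motif matches on either strand in capitals, they are as follows.
Kcna2 (chr2:197393280-197393529): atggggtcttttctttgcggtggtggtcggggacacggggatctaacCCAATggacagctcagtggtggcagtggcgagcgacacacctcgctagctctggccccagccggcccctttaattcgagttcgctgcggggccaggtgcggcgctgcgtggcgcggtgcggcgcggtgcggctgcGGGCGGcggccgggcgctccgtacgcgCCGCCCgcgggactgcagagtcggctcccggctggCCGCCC
Cacna1d (chr16:5527550-5527799): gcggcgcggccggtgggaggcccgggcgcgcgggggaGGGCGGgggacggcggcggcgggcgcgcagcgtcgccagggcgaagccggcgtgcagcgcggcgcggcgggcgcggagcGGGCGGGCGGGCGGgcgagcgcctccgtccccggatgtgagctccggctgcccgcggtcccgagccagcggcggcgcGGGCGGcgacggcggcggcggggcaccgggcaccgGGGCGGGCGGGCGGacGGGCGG
Kcne1 (chr11:45077034-45077283): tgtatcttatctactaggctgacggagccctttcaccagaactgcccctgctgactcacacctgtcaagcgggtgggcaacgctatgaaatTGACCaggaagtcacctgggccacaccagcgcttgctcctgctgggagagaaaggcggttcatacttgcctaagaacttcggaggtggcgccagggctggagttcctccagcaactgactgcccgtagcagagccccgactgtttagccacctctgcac

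The capitals mark GGGCGG or CCGCCC (the GC box), CCAAT or ATTGG (the CCAAT box), TATAAA or TTTATA (the TATA box) and GGTCA or TGACC (an arm of the estrogen response element). The full estrogen response element, GGTCA and TGACC with 3 free bases between them, was in 0 of these 3 windows. The Cacna1d window was 88.8% G or C with 9 GC boxes, some overlapping, and the Kcna2 window 72.4% with 3 GC boxes and 1 CCAAT box. The Kcne1 window was 57.6% G or C and held a single arm, TGACC. Windows were found for 84 of the 126 channel genes. The GC box was in 48.8% of these 84 and in 30.5% of all 33469 windows, the CCAAT box in 21.4% and 34.0%, the TATA box in 2.38% and 12.9%, and a GGTCA arm in 25.0% and 35.4%. The full element was in 0 of the 84 and in 0.0239% of all windows. These matches describe letters in short windows and say nothing of the factors that bind there.

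Among the calcium channel pores, Cacna1d was alone in passing both thresholds. Cacna1c, which carries most of the L-type current of the myometrium, had 6.76, 8.49 and 8.09 FPKM in CAS and 6.12, 4.71 and 2.93 in CAS-E2, so the groups did not overlap. Its change of -0.69 ± 0.22 (SE) had a limma adjusted p of 0.0282 and was under 2-fold, and on soy it was -0.49 ± 0.22 (SE) at 0.115, or -0.67 ± 0.22 (SE) at 0.032 without SPI-E2 1. The ratio of Cacna1c to Cacna1d, formed after the values were seen, was 1.21 to 1.43 in CAS and 6.18 to 15 in CAS-E2. On soy it was 0.904 to 1.05 in SPI and 0.969, 9.89 and 11 in SPI-E2, so that SPI-E2 1 lay inside the SPI range. Cacna1g and Cacna1h, the T-type pores that open at low voltage, did not pass: Cacna1g changed by 0.35 ± 0.25 (SE) on casein and Cacna1h by -0.29 ± 0.24 (SE). Cacna1a, the P/Q-type pore known from nerve terminals, changed by -0.62 ± 0.21 (SE) at an adjusted p of 0.0362. The 9 calcium pores summed to 20.2 to 23.4 FPKM in CAS and 7.95 to 16.7 in CAS-E2.

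Of the 16 calcium channel auxiliaries 4 were tested, and limma called 0 of them on either diet, a number too small to set against the shares of all genes. Cacnb3, the cytoplasmic beta subunit most abundant here, had 9.71 to 10.7 FPKM in CAS and 8.40 to 9.16 in CAS-E2. It had 5.39 to 6.65 in SPI and 7.28 to 8.92 in SPI-E2, so that its E2 difference had opposite signs on the 2 diets, -0.21 ± 0.13 (SE) and 0.32 ± 0.13 (SE), the latter 0.38 ± 0.13 (SE) without SPI-E2 1. Cacna2d1, which helps pores reach the membrane, changed by -0.40 ± 0.21 (SE) on casein and -0.34 ± 0.21 (SE) on soy. Cacng7, known as a partner of neuronal glutamate receptors, and Cacnb2, another beta subunit, were the 2 auxiliaries with an adjusted p under 0.05 on casein, at 0.0194 and 0.0192, with changes of -0.91 and -0.74 that did not reach 2-fold.

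Of the 6 genes called lower on casein, 4 were voltage-gated potassium pores, of which 11 were tested, and on soy 1 of 2 was. By the adjusted p alone these pores were 6 of the 19 that were lower on casein and 2 of the 7 on soy. Kcng1, a silent subunit that forms channels only with other pore subunits, had 3.28, 3.55 and 3.28 FPKM in CAS and 0.216, 0.215 and 0.869 in CAS-E2, with a limma change of -1.64 ± 0.32 (SE) at an adjusted p of 0.00287. Its SPI libraries, at 1.35, 1.32 and 2.24, lay below all CAS libraries. With E2 on soy it had 2.71, 0.445 and 0.457 FPKM, so SPI-E2 1 was above every SPI library and the others below, and the change was -0.39 ± 0.32 (SE) at 0.383. Without SPI-E2 1 it was -0.84 ± 0.21 (SE) at 0.00918, under 2-fold. Kcnd3, a pore of the fast transient current, had 6.10, 5.55 and 4.5 FPKM in CAS and 2.1, 2.40 and 1.09 in CAS-E2, with a change of -1.18 ± 0.27 (SE) at 0.00576. The soy libraries had 4.25, 5.67 and 4.46 without E2 and 4.75, 1.77 and 1.97 with E2, and the change of -0.67 ± 0.27 (SE) had an adjusted p of 0.0819. Without SPI-E2 1 it was -1.0 ± 0.21 (SE) at 0.00323 and was called.

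Kcnh2 had 18.2, 18.6 and 18.9 FPKM in CAS, and 12.9, 9.61 and 4.13 in CAS-E2. Its fall was -1.10 ± 0.29 (SE) at a limma adjusted p of 0.012. The call, though not the fall, rested on CAS-E2 3. Without that library the fall was -0.69 at an adjusted p of 0.0204 and, under 2-fold, no longer called. Array weights, which let limma weigh each library by how well it follows its group, also ended the call, at a change under 2-fold. On soy, Kcnh2 had 11.8 to 15.2 FPKM without E2 and 10 to 14.9 with E2, which overlap, and its change was -0.05 ± 0.29 (SE), or -0.16 ± 0.33 (SE) without SPI-E2 1. The call of Kcnd3 on casein was lost without CAS-E2 3 as well, at -0.97 and an adjusted p of 0.024. CAS-E2 3 also had the lowest smooth muscle sum, 2095 FPKM against 3998 and 4868 in the other CAS-E2 libraries, and whether that bears on these falls was not tested.

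Kcnb2, another delayed rectifier, came close to the fold threshold on casein at -0.98 ± 0.21 (SE) and an adjusted p of 0.00389, and had -0.61 ± 0.21 (SE) at 0.0452 on soy, or -0.83 ± 0.18 (SE) at 0.00344 without SPI-E2 1. Kcnq1, the pore of a slow current in heart and epithelia, had 3.45, 4.59 and 4.56 FPKM in CAS and 1.74, 1.63 and 2.79 in CAS-E2, a change of -0.78 ± 0.16 (SE) at 0.00352, under 2-fold on the tested scale. The soy values were 2.25, 2.03 and 2.19 FPKM without E2 and 2.96, 3.48 and 3.02 with E2, a change of 0.39 ± 0.16 (SE) at 0.0861. The CAS libraries were thus the high ones, and the SPI libraries lay as low as CAS-E2.

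Kcnf1, a silent subunit related to Kcng1, moved the other way. It had 0.707, 0.656 and 0.446 FPKM in CAS and 11.4, 12.6 and 1.85 in CAS-E2, a 14.2-fold higher mean. Every CAS-E2 library was above every CAS library, but CAS-E2 3 stood far below the other 2. The change was 2.29 ± 0.56 (SE) at a limma adjusted p of 0.00779, and 3.02 ± 0.42 (SE) without CAS-E2 3. In the soy groups Kcnf1 had 1.17, 0.595 and 0.544 FPKM without E2 and 1.64, 9.11 and 3.35 with E2, a change of 1.48 ± 0.56 (SE) at 0.0667 that was not called with all libraries and was called without SPI-E2 1, at 1.92 ± 0.57 (SE) and 0.0201. Kcnh1, a pore of the EAG family, had an adjusted p of 0.0108 on casein with a rise of 0.79 ± 0.20 (SE) that did not reach 2-fold.

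The summed RNA of the K2P leak channels was higher with E2 on both diets. Their 13 genes summed to 24.8 to 29.0 FPKM in CAS, 45.1 to 53.2 in CAS-E2, 19.1 to 21.5 in SPI and 34.4 to 70.8 in SPI-E2, with no overlap between libraries with and without E2. The potassium auxiliaries were higher without overlap on each diet too, by less, at 15.3 to 17.7 FPKM in CAS, 20.2 to 21.3 in CAS-E2, 12.7 to 14.3 in SPI and 15.2 to 28.1 in SPI-E2. These sums do not mean that each class rose as a whole. Kcnk1 and Kcnk6 held most of the K2P sum in every group mean. Auxiliaries moved both ways on casein, with changes of 1.10 for Kcnip2 and -0.89 for Kcnab1. In CAS-E2 3 the auxiliary Kcne3 had 9.64 FPKM, beside 1.30 and 3.67 in the other CAS-E2 libraries. Kcnk1 had 12.4, 9.19 and 7.37 FPKM in CAS and 21.5, 24.0 and 30.9 in CAS-E2, and 6.51, 6.41 and 6.66 in SPI and 16.2, 31.3 and 34.5 in SPI-E2. All E2 libraries were above all libraries without E2, SPI-E2 1 included. The rise was 1.33 ± 0.26 (SE) at a limma adjusted p of 0.00281 on casein and 1.85 ± 0.26 (SE) at 0.000871 on soy, and it was called under all alternatives tried. Without SPI-E2 1 the soy rise was 2.17 ± 0.20 (SE).

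Kcnk6 had 10.1, 10.5 and 13.0 FPKM in CAS and 15.5, 21.0 and 18.1 in CAS-E2, a rise of 0.65 ± 0.27 (SE) that was not called, at 0.071. On soy it had 8, 6.76 and 7.63 without E2 and 12.7, 32.1 and 25.8 with E2, a rise of 1.45 ± 0.27 (SE) at an adjusted p of 0.00317, and 1.82 ± 0.17 (SE) without SPI-E2 1. Kcnk12, a K2P member better known from brain, was at 0 to 0.180 FPKM in CAS and 2.53, 1.49 and 0.262 in CAS-E2. Its rise of 1.03 ± 0.35 (SE) at 0.0334 rested on few reads, 0 to 3.4 in the CAS libraries and 3.4 to 34.7 in CAS-E2, and was lost without any 1 of CAS 1, CAS 2, CAS 3, CAS-E2 1 or CAS-E2 2. On soy its change was 0.93 ± 0.35 (SE) at 0.065, not called, and without SPI-E2 1 it was 1.12 ± 0.37 (SE) at 0.0338 and called. Kcnk2, the stretch-sensitive TREK channel of smooth muscle, moved the other way from Kcnk1. It had 1.74, 1.13 and 0.961 FPKM in CAS and 0.0465, 0.281 and 0.259 in CAS-E2. Its change of -0.92 ± 0.19 (SE) at a limma adjusted p of 0.00362 stayed under 2-fold on the tested scale. Kcnk3, an acid-sensitive leak channel, changed by 0.04 ± 0.24 (SE) on casein and -0.23 ± 0.24 (SE) on soy, or -0.12 ± 0.26 (SE) without SPI-E2 1.

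**Figure D3:**
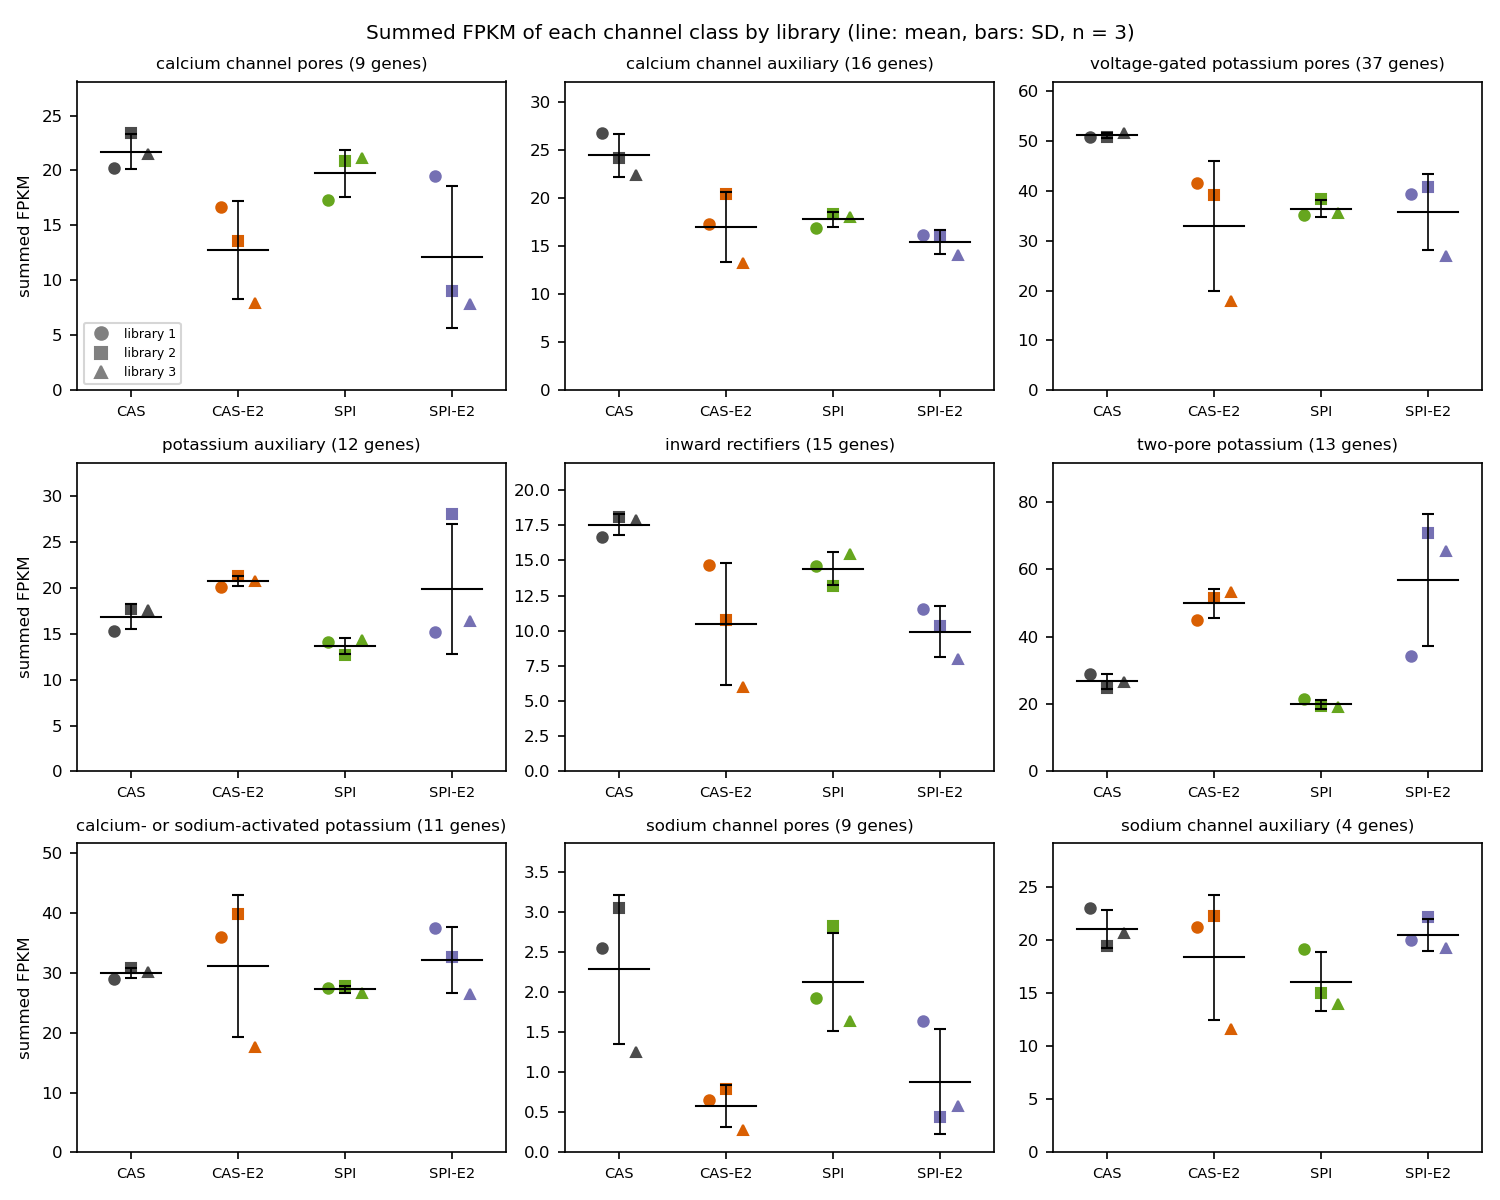
Summed FPKM (linear axes from 0) of the 9 channel classes, by group; each marker is a library, the line is the mean and the bars the SD of 3 libraries. The K2P class (labelled two-pore) is higher in all E2 libraries, from 34.4 FPKM up, than in all libraries without E2, up to 29.0, while the calcium pores of SPI-E2 1, at 19.5, sit with SPI.

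Kcne subunits are small membrane proteins that attach to potassium pores such as those of Kcnq1 and Kcnh2. Kcne1 was listed at 0 in the 3 CAS libraries and had 1.80, 2.57 and 3.47 FPKM in CAS-E2. It was at 0, 0 and 0.811 in SPI and 1.06, 4.03 and 3.80 in SPI-E2, so that all E2 libraries were above all others. The limma adjusted p was 0.00202 on casein and 0.00627 on soy, or 0.000163 on soy without SPI-E2 1. No fold is given against libraries at 0, and with a transcript of 585 bases the E2 libraries held the equivalent of 4.6 to 22.9 reads. SPI 3 also held 4.6, as many as SPI-E2 1, so the FPKM of these libraries differ through depth alone. Kcne4 had 3.15 to 4.06 FPKM in CAS and 7.10, 5.64 and 1.38 in CAS-E2, where CAS-E2 3 lay below the CAS libraries. On soy it had 2.16, 1.72 and 1.94 without E2 and 4.11, 8.92 and 4.43 with E2, a rise of 1.15 ± 0.38 (SE) at 0.044. That call was lost in 11 alternatives, with values of 0.84 to 1.45 over all alternatives and 1.32 ± 0.43 (SE) at 0.0294 without SPI-E2 1. Kcnip2, a calcium-binding partner of the Kcnd pores, had 1.11 to 1.35 FPKM in CAS and 2.96 to 4.42 in CAS-E2, a rise of 1.10 ± 0.40 (SE) at 0.0464, lost in 9 alternatives. On soy the Kcnip2 change was 0.46 ± 0.40 (SE) at 0.407, or 0.81 ± 0.40 (SE) at 0.127 without SPI-E2 1. Kcnab1, a cytoplasmic beta subunit of the Kcna pores, had -0.89 ± 0.22 (SE) at 0.00789 on casein, under 2-fold.

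Epithelial markers were also higher with E2. On casein 5 and on soy 6 of the 6 tested epithelial genes were called higher, with medians of 1.31 and 1.93 on the log2 scale, and Cldn3 was at 0 in all libraries. Within CAS-E2 their sum was highest in CAS-E2 3, where Kcnk1 and Kcne1 were highest too but Kcnf1, Kcnk12, Kcne4 and Kcnip2 were lowest. Leukocyte genes also moved: 4 of 6 tested (among them Cd68 and Cd74) were called higher on casein and 1 on soy, with summed levels of 97.6 to 155 FPKM in CAS, 342.3 to 458.1 in CAS-E2, 150.2 to 170.9 in SPI and 177.2 to 289.5 in SPI-E2. Of 5 fat genes 1 was called higher on casein and 0 on soy, and their sums were 66.9 to 135.2 in CAS, 100.9 to 278.1 in CAS-E2, 85.8 to 514.4 in SPI and 172.3 to 309.5 in SPI-E2. Their part in the rises of Kcnk1, Kcnk6, Kcne1 and Kcnf1 was not tested.

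Some markers of other tissues were also lower with E2, and others were not. Of the nerve and glia list, 6 of 13 genes were tested and 2, among them Gap43, were called lower on casein, with summed levels of 12.5 to 24.9 FPKM in CAS, 5.35 to 20.5 in CAS-E2, 17.2 to 51.0 in SPI and 12.7 to 21.7 in SPI-E2. The neuronal genes Snap25, Stmn2 and Nefm were at or near 0 in all groups, but other neuronal genes of the list were not. Uchl1 had means of 2.09 FPKM in CAS and 1.01 in CAS-E2, and Tubb3 1.65 and 2.35, and neither was called on either diet. Of the skeletal muscle list, 5 of 10 genes were tested and Tnnc2 and Tnni2 were called lower on both diets. Its sums were 44.6 to 78.4 in CAS, 25.7 to 56.7 in CAS-E2, 51.8 to 72.5 in SPI and 32.1 to 58.1 in SPI-E2, and the myosin Myh2 was at 0 in all libraries. Of 7 stromal genes 2 were called lower on casein and 5 on soy, with sums of 727.5 to 911.8 in CAS, 352.9 to 814.7 in CAS-E2, 755.5 to 903 in SPI and 278.6 to 698 in SPI-E2. Of 4 endothelial genes 2 and 1 were called lower, with sums of 66.3 to 78.4, 30.4 to 45, 56.3 to 70.5 and 36.4 to 48.7 in the same order. Of 9 smooth muscle genes 1, Mylk, was called lower on casein and 0 on soy, and their changes on casein ran from -1.11 for Mylk to 0.94 for Actg2, whose adjusted p was 0.0571. Their sums were 2940 to 3255 in CAS, 2095 to 4868 in CAS-E2, 2445 to 2863 in SPI and 2873 to 4565 in SPI-E2. On soy the sums of all E2 libraries were thus the higher ones, that of SPI-E2 1 only just. The genes did not move alike. Their median change was -0.52 on casein and -0.36 on soy, and on soy Tagln was at 0.41 and Mylk at -0.70. The part of these cells in the falls of Kcna2, Cacna1d and the other pores was not tested.

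The calcium-activated potassium channels changed unequally within a single channel complex. Kcnma1, the pore of the BK channel, had 3.10, 2.80 and 2.39 FPKM in CAS and 0.758, 0.951 and 0.464 in CAS-E2, a fall of -1.13 ± 0.23 (SE) at a limma adjusted p of 0.00307. On soy it had 2.08, 2.17 and 1.76 without E2 and 1.85, 0.519 and 0.544 with E2, a change of -0.67 ± 0.23 (SE) at 0.0457 that was under 2-fold, as was the -0.97 ± 0.16 (SE) at 0.000726 without SPI-E2 1. Kcnmb1, its beta subunit, had 18.3, 21.3 and 20.8 FPKM in CAS and 27.9, 33.1 and 11.6 in CAS-E2, a change of 0.13 ± 0.29 (SE) at 0.736. That value rested on CAS-E2 3, without which it was 0.57 ± 0.16 (SE) at 0.0203, under 2-fold. On soy Kcnmb1 had 18.4, 19.8 and 19.7 without E2 and 27.7, 25.6 and 20.9 with E2, at 0.33 ± 0.29 (SE) and 0.41. The ratio of Kcnmb1 to Kcnma1, formed after the values were seen, is free of the scaling of the library. It was 5.90, 7.6 and 8.71 in CAS and 36.8, 34.8 and 25.0 in CAS-E2, and 8.84, 9.13 and 11.2 in SPI and 15, 49.2 and 38.4 in SPI-E2, so that no E2 library overlapped a library without E2, CAS-E2 3 included.

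**Figure D4:**
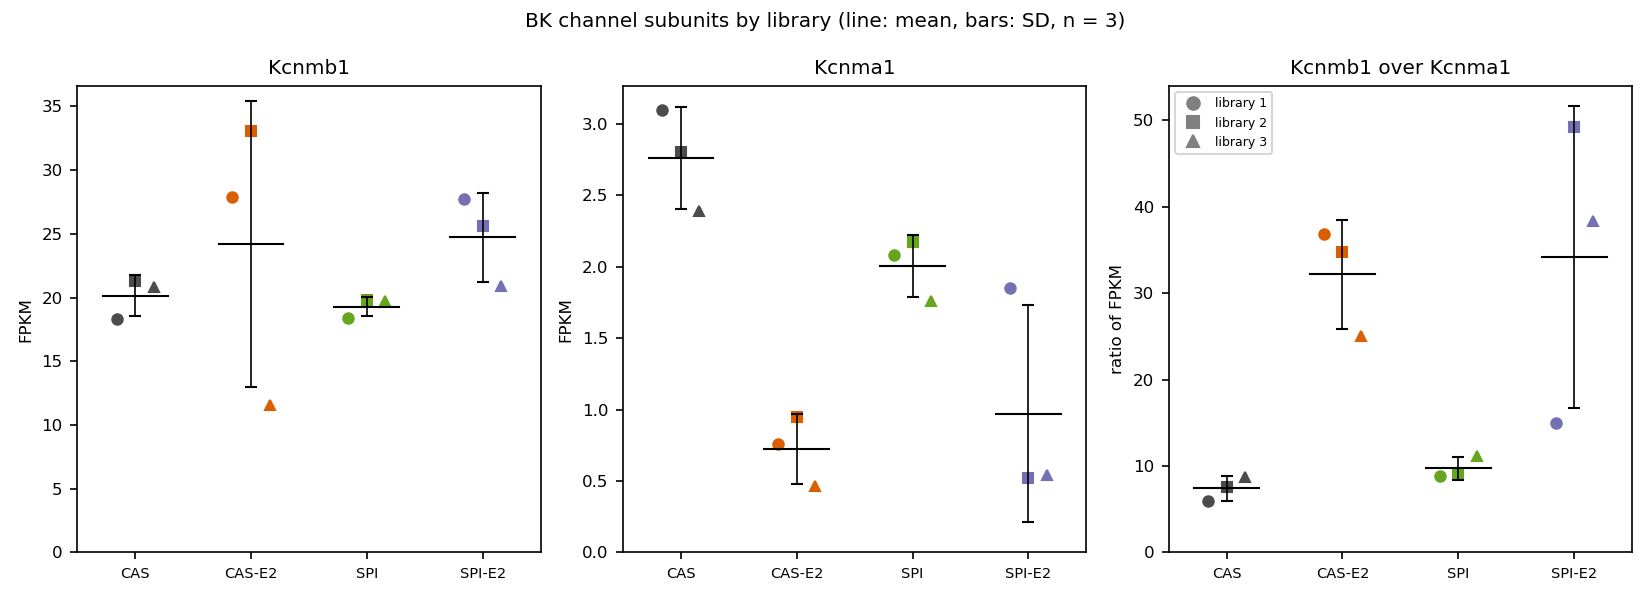
FPKM of Kcnmb1 and Kcnma1 and the ratio of both (linear axes from 0), by group; each marker is a library, the line is the mean and the bars the SD of 3 libraries. The ratio is 5.90 to 11.2 in the libraries without E2 and 15 to 49.2 in those with E2, lowest of these in SPI-E2 1.

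Kcnn3, a small-conductance potassium channel opened by calcium and known for holding the uterus quiet, had 3.68, 2.82 and 2.94 FPKM in CAS and 1.56, 1.66 and 0.832 in CAS-E2. On soy it had 3.2, 3.15 and 2.22 without E2 and 2.58, 0.580 and 0.947 with E2. Its changes of -0.83 ± 0.27 (SE) and -0.78 ± 0.27 (SE) had limma adjusted p of 0.0293 and 0.0481 and stayed under 2-fold, and without SPI-E2 1 the soy change was -1.13 ± 0.20 (SE) at 0.00129 and was called. Kcnn4, the intermediate-conductance channel of epithelia and immune cells, had 0.51 ± 0.16 (SE) at 0.032 on soy and 0.22 ± 0.16 (SE) on casein. Kcnt2, a sodium-activated channel, was too low to be tested, but its libraries with E2 did not overlap those without. It had 0.0472 to 0.202 FPKM in CAS, 0.708 to 0.785 in CAS-E2, 0.0946 to 0.237 in SPI and 0.648 to 1.08 in SPI-E2. The libraries without E2 held the equivalent of 1.1 to 6.4 reads. Shares of untested genes without overlap are given below.

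Of the 15 inward rectifiers 4 were tested, and of the 13 sodium channel genes 3, and limma with both thresholds called 0 of these on either diet, again too few to set against the shares of all genes. Kcnj8 had 10.9, 12.1 and 11.2 FPKM in CAS and 11.3, 7.96 and 3.32 in CAS-E2, a change of -0.66 ± 0.29 (SE) at 0.0869. Kcnj2, the classical strong inward rectifier, had -0.31 ± 0.28 (SE) on casein. Kcnj13 and Kcnj4 had adjusted p of 0.00762 and 0.0272 on casein with changes of -0.74 and -0.81, and Kcnj13 had 0.0096 on soy with -0.77. Scn7a had 1.59, 2.30 and 0.571 FPKM in CAS and 0.260, 0.431 and 0.139 in CAS-E2, a change of -0.90 ± 0.28 (SE) at 0.0243, and 1.06 to 1.92 in SPI against 0.206 to 0.978 in SPI-E2, at -0.75 ± 0.28 (SE) and 0.0648, or -0.99 ± 0.28 (SE) and 0.0149 without SPI-E2 1. The beta subunit Scn2b had 9.81 to 11.9 FPKM in CAS and 4.71 to 14 in CAS-E2, which overlap.

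By the adjusted p alone, 6 channel genes were higher and 19 lower on casein, beside 17.1% and 22% of all genes tested. The median log2 change of the 45 channel genes was -0.313, beside -0.0701 over all genes, and 29 of them were below 0. On soy, 4 of 45 channel genes rose (8.89%, beside 8.39% of all genes) and 2 fell (4.44%, beside 1.86%). By the adjusted p alone these counts were 5 and 7, beside 21.1% and 6.57% of all genes. The median was -0.227 for the channel genes against 0.110 over all genes, and it turned to 0.0944 against 0.160 without SPI-E2 3. Scaling libraries by the median ratio moved both, to -0.327 and -0.0221, turned the shares of all genes called into 6.70% higher and 2.85% lower and left 3 and 2 channel genes. Without SPI-E2 1, 6 channel genes rose and 4 fell on soy, beside 12.5% and 4.44% of all genes.

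Of the channel genes not tested, 65 had a value above 0 in CAS or CAS-E2 and 69 in SPI or SPI-E2. On casein 4 of 65 (6.15%) were higher in all CAS-E2 libraries than in all CAS libraries, beside 9.52% of untested genes, and 16 (24.6%) were lower in all, beside 16.4%. On soy 4 of 69 (5.80%) were higher without overlap, beside 6.28%, and 9 (13.0%) lower, beside 11.3%. Kcnc2, a fast delayed rectifier, was listed at 0 in the 6 libraries without E2 and had 0.181 to 0.715 FPKM in the 6 with E2. Kcna4, a transient potassium pore, had 0.484 to 0.736 in CAS and 0.0471 to 0.101 in CAS-E2, and 0.450 to 0.898 in SPI and 0.0352 to 0.369 in SPI-E2. The sodium pore Scn8a had 0.126 to 0.237 in CAS and 0 to 0.0662 in CAS-E2. Kcna4 and Scn8a were chosen after their values were seen.

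Across the 45 tested channel genes, the E2 change had the same sign on both diets for 36, with 23 below and 13 above 0. That is 80%, and it was 76.0% of all genes. Pearson's r of the changes was 0.875 across these genes and 0.837 across all genes, given as a description, since genes of the same libraries are not independent. In SPI-E2 1, 0 of the 6 genes that fell on casein were below all SPI libraries, beside 46.9% of all 655 genes that fell. In SPI-E2 2 and SPI-E2 3 it was 5 and 6 of the 6, beside 90.5% and 96.0%. Of the 5 that rose on casein, 4 were above all SPI libraries in SPI-E2 1, 5 in SPI-E2 2 and 4 in SPI-E2 3, beside 89.9%, 96.1% and 93.8% of all 821 genes that rose.

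**Figure D5:**
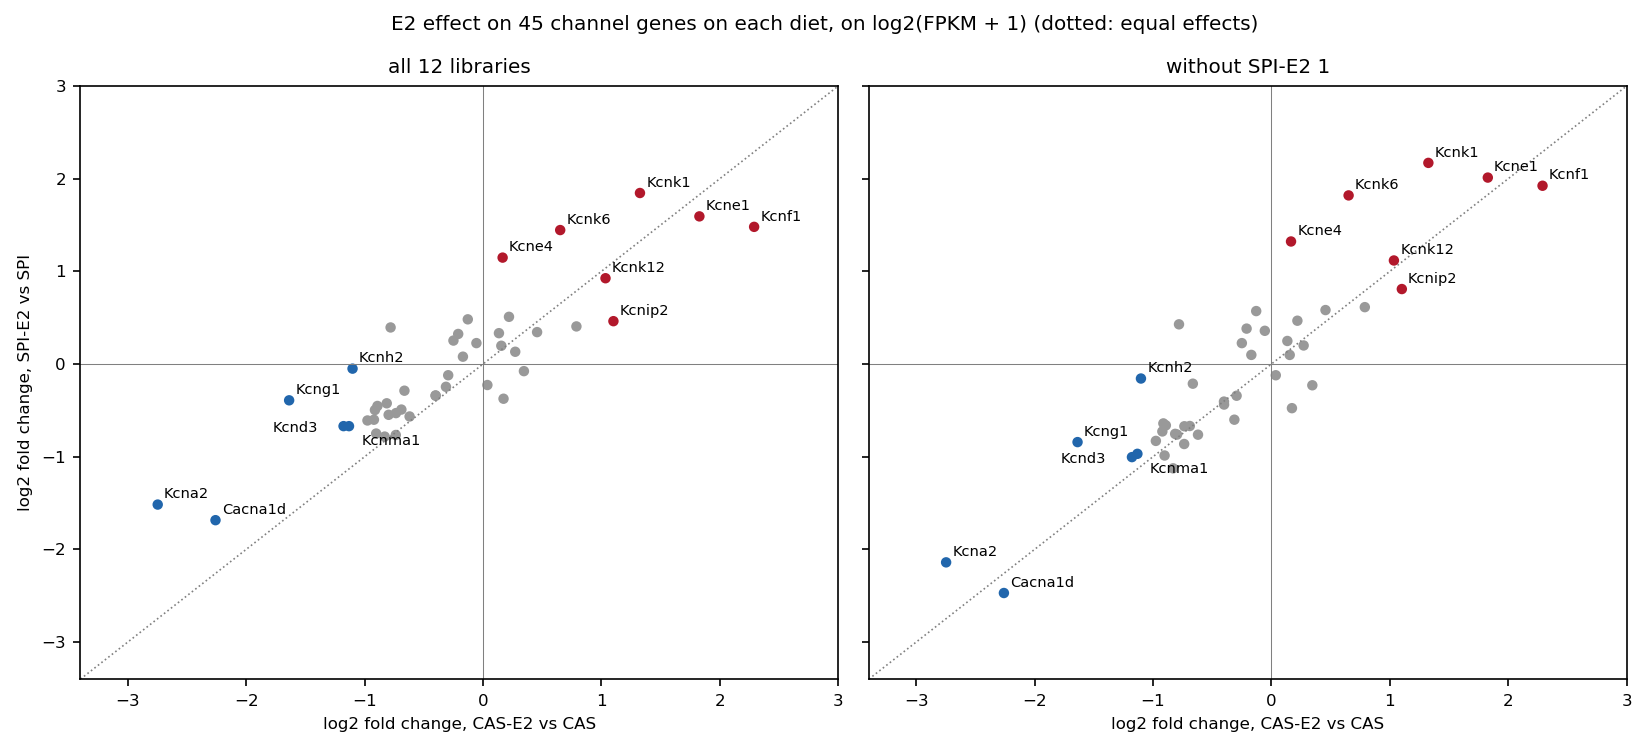
Log2 fold change of the 45 tested channel genes from CAS to CAS-E2 (horizontal) and from SPI to SPI-E2 (vertical), on log2(FPKM + 1), with all 12 libraries (left) and without SPI-E2 1 (right); red genes were called higher and blue genes lower in an E2 comparison, and grey genes were not called. Most points lie near the dotted line of equal change in both panels, with Pearson's r of 0.875 and 0.898, and Kcna2 and Cacna1d move towards it on the right.

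The difference between the E2 effects on the diets was tested as an interaction. By limma 0 channel genes passed, beside 0% of all genes in either direction, with a smallest adjusted p of 0.125 for Kcnq1. At an unadjusted p under 0.05 there were 4 channel genes higher and 0 lower, of 1362 and 168 genes in all. The estimate for Kcnq1 was 1.18 ± 0.23 (SE), for Kcng1 1.25 ± 0.46, for Kcnh2 1.05 ± 0.41 and for Cacnb3 0.53 ± 0.18, each meaning that the change with E2 was higher on soy than on casein. Without SPI-E2 1, Kcnk6 (1.17 ± 0.23 SE, adjusted p 0.0421) and Kcnq1 (1.21 ± 0.24 SE, 0.0441) were called, beside 0.817% of all genes higher and 0.0681% lower. All-gene medians moved with this contrast too: 0.206 over all genes and 0.249 over channel genes, and 0.00628 and 0.0834 with median-ratio scaling.

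Diet without E2 left the channel genes without a call. Between SPI and CAS, limma called 0 channel genes, beside 0% of all genes higher and 0.0195% lower, and 0 higher and 3 lower at an unadjusted p under 0.05, of 83 and 1236 genes. These 3 were Cacnb3 (-0.65 ± 0.13 SE, adjusted p 0.277), Kcnq1 (-0.71 ± 0.16 SE, 0.277) and Kcng1 (-0.75 ± 0.32 SE, 0.373). In each of them all SPI libraries were below all CAS libraries, which their choice by p in this same comparison makes likely. The share of all tested genes without such overlap was not computed. The median over all genes was -0.163 here and -0.00118 with median-ratio scaling, beside -0.199 and -0.0538 for the channel genes, so these differences are best read against that shift. Between SPI-E2 and CAS-E2, 0 channel genes were called, beside 0.00973% of all genes higher and 0% lower, with a smallest adjusted p of 0.716, and 1 higher and 2 lower at an unadjusted p under 0.05, of 366 and 235 genes.

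SPI-E2 was also compared with CAS, the control of the study, which shares the CAS libraries with the casein comparison. In it 3 channel genes rose, beside 6.84% of all genes, and 3 fell, beside 3.89%. Kcne1, Kcnk1 (1.37 ± 0.26 SE, limma adjusted p 0.00408) and Kcnf1 (1.61 ± 0.56 SE, 0.0479) were higher, and Kcna2 (-2.14 ± 0.41 SE, 0.00416), Cacna1d (-1.55 ± 0.47 SE, 0.0304) and Kcng1 (-1.14 ± 0.32 SE, 0.0226) were lower. Without SPI-E2 1 these counts were 5 and 8, beside 10.1% and 7.28% of all genes.

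Other genes of excitability and calcium handling were taken from a list of 42 pumps, exchangers, stores and further channels, of which 37 were found and 31 tested. On casein 3 rose and 3 fell, with a median change of -0.27. Gja1, the connexin that couples myometrial cells, had 5.59 to 8.22 FPKM in CAS and 33.4 to 44.3 in CAS-E2, a rise of 2.38 ± 0.23 (SE) and the largest of the list. On soy 4 rose and 2 fell, with a median of 0.32. Gja1 had 8.58 to 10.7 FPKM in SPI and 15.7 to 31.0 in SPI-E2, a rise of 1.18 ± 0.23 (SE), with SPI-E2 1 the lowest of the E2 libraries.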

How the data were processed

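Uterine poly-A RNA of 4 groups was sequenced by the authors as 36-bp single reads, 3 pooled libraries a group. By the study's methods and the submitters' processing notes, reads were split with CASAVA 1.7, quality filtered, aligned to rn4 with TopHat2 2.0.9 and Bowtie2 2.1.0, and quantified with Cufflinks 2.1.1. The deposited values are FPKM per transcript, scaled by the authors to each library's mapped reads. Strand use is not given in the sources used here. Read counts were not used here, and Cuffdiff was not repeated.

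FPKM were summed per gene symbol. limma 3.58.1 (R 4.3.3) was fitted once over the 4 groups on log2(FPKM + 1), with a variance trend, for genes that reached an FPKM of 1 in 3 or more libraries. Depth and reads come from the coverage beside each FPKM. Tables and plots used Python 3.11.15, pandas 2.3.3 and matplotlib 3.10.9. The fit was tested on simulated data.

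The genes and lists were chosen with earlier results of these data known. Genes named are those called, the most abundant of each symbol stem, and a list of uterine channels. Other channel genes named, such as those past the adjusted p alone, were chosen after their values were seen. A few genes picked by this rule, and 1 row of the heatmap, are left out here. The labels number the replicates without saying what a number shares. Deviations of same-numbered libraries correlated at 0.117 to 0.336 between CAS-E2 and SPI-E2, and at -0.263 to 0.153 in other pairs of groups. These ranges overlap, so whether the numbers pair libraries cannot be told from them. Alternatives were other pseudocounts, filters, scalings, fits and thresholds, a replicate block, and leaving out each library.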

Additional observations from a re-analysis of the deposited data

Results flagged for a closer look

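Cacnb3 and Kcnq1 moved in opposite directions with E2 on the 2 diets in every library, which is why they are given here. Cacnb3 had a mean of 8.70 FPKM in CAS-E2, with all 3 libraries below all CAS libraries (mean 10.2), and 7.99 in SPI-E2, with all 3 above all SPI libraries (mean 6.19). Kcnq1 had a mean of 2.05 FPKM in CAS-E2, below all CAS libraries (mean 4.20), and 3.15 in SPI-E2, above all SPI libraries (mean 2.16). The difference itself, tested as the limma interaction, had adjusted p of 0.223 for Cacnb3 and 0.125 for Kcnq1 and was called for neither. Without SPI-E2 1, Kcnq1 was called, at 0.0441. In both genes, CAS had the highest mean of the 4 groups. The share of all tested genes that moved this way was not computed, so the pattern cannot be called particular to these channels. Over all genes the interaction had a median of 0.206.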

How the results depend on the processing

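Of the 11 channel genes called on casein, 7 were called under every alternative that tested them, and of the 6 called on soy, 3 were. No called gene changed sign. A smaller pseudocount raised the number of channel genes called lower: with 0.1 there were 16 on casein, 5 on soy and 11 in SPI-E2 against CAS, beside 11.1%, 3.81% and 7.06% of all genes, and with 0.5 there were 15 on casein and 8 in SPI-E2 against CAS, beside 9.21% and 5.72%. With the adjusted p alone these were 19, 7 and 14, beside 22%, 6.57% and 14.9%. A filter on a mean FPKM of at least 5 left 9 channel genes to test, of which 1 rose and 1 fell on casein, 2 rose and 0 fell on soy, and 1 rose and 0 fell in SPI-E2 against CAS. With only the 2 groups compared in the fit, 0 fell on soy and 1 in SPI-E2 against CAS. With array weights, 9 fell in SPI-E2 against CAS and 1 was higher in the interaction, and the cause was not tested. Shares of all genes are not given for this filter, the 2-group fit or array weights. These counts thus have no background beside them.

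Leaving out 1 library at a time gave 3 to 5 rises and 4 to 9 falls on casein, and 3 to 6 rises and 0 to 4 falls on soy. In SPI-E2 against CAS it gave 2 to 5 rises and 1 to 8 falls, and in the interaction 0 to 2 genes higher. The shares of all genes moved with the library too. Without SPI-E2 1, 4.44% of all genes fell on soy and 7.28% in SPI-E2 against CAS. Without SPI-E2 3, these shares were 0.603% and 1.67%. With the replicate block the counts of rises and falls stayed at 5 and 6 on casein, 4 and 2 on soy, and 3 and 3 in SPI-E2 against CAS, and at 0 in the other comparisons. Genes near 1 FPKM rest on few reads, since 1 FPKM was 3.72 reads for the shortest tested transcript, of 585 bases, and 85.5 for the longest, and 3 pools a group limit what small differences can be seen.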
